A study of Sylvia borin with 20 samples.

Results

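The NF-κB family was followed here through 9 genes, of which 4 code for the DNA-binding factors (NFKB1, NFKB2, REL and RELA). The other 5 are grouped here as inhibitors which the pathway itself is known to induce (NFKBIA, NFKBIE, NFKBIZ, TNFAIP3 and TNIP1). NFKBIZ is kept among them as an IκB family member, though its protein works with NF-κB dimers on a subset of target genes. The genes were taken by symbol from the expression tables of the whole blood of garden warblers (Sylvia borin), and all 9 were found among the 20898 symbols. The same 10 wild birds, caught lean on spring migration and caged singly with mealworms and water ad libitum, were bled on day 1 (lean) and on day 5 (fat), which gave 10 lean and 10 fat libraries. Refueling, days in the cage and handling change together between the conditions and cannot be told apart. The age and sex of the birds are not given in the sources used here. Reads were mapped to the zebra finch genome, so levels rest on the parts of each gene that the species share closely enough to map.

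NF-κB factors are dimers that wait in the cytoplasm, held by inhibitors of the IκB family. Signals from cytokine and pathogen receptors lead to the destruction of the inhibitor, the dimer enters the nucleus, and among the genes it switches on are its own inhibitors, which then end the response. In blood the pathway is best known from white cells, where it drives inflammatory and survival genes.

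Depth was read as the ratio of coverage (mean read depth per base) to FPKM (fragments scaled for gene length and library size), which gave 0.882 to 4.71 gigabases of aligned sequence for a library. The number of reads behind a gene was not estimated, and a value of 0 is given as listed at 0. Levels below are FPKM divided by median-of-ratio size factors, called normalized FPKM. They are scaled for gene length but not for how well the reads of each gene map, so comparisons between genes are approximate. Erythroid markers, which include the α-globin gene HBAA, summed to at least 117244 normalized FPKM in every library. In lean libraries the sums were 49.2 to 153 for thrombocyte markers, up to 60.1 for heterophil markers (median 18.9) and 1.25 to 16.8 for monocyte markers. CD3E and CD5 of T cells, CD14, MARCO and C1QB of monocytes, LYG2 of heterophils and THBS1 of thrombocytes were listed at 0 in all 20 libraries.

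By normalized FPKM, transcripts of the inhibitors, except NFKBIZ, were higher on average than those of the factors. TNIP1, whose protein (ABIN1) binds ubiquitin chains and works beside TNFAIP3, had the highest level, 4.25 ± 2.32 normalized FPKM (SD, n = 20 libraries), and ranked first of the 9 genes in 15 libraries. NFKBIA, NFKBIE and TNFAIP3 followed with means of 2.05, 1.88 and 1.502. These 3 did not differ beyond their spread, since NFKBIA was above NFKBIE in 11 of 20 libraries and NFKBIE above TNFAIP3 in 10. RELA came next at 0.782 ± 0.504 and below TNFAIP3 in 14 libraries, and NFKB2 at 0.249 ± 0.206, below RELA in 16. REL, NFKB1 and NFKBIZ lay at the edge of detection, with means of 0.0935, 0.0675 and 0.0362. REL was above NFKB1 in 6 libraries and below it in 6. The 5 inhibitors together summed to between 6.84 and 18.7 normalized FPKM in lean libraries (median 11.8) and between 3.60 and 15.4 in fat libraries (median 6.49), and the sum was lower in the fat library of 9 birds. The 4 factors summed to between 0 and 2.95 (median 1.076) in lean and between 0.399 and 2.41 (median 1.01) in fat libraries.

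**Figure D1:**
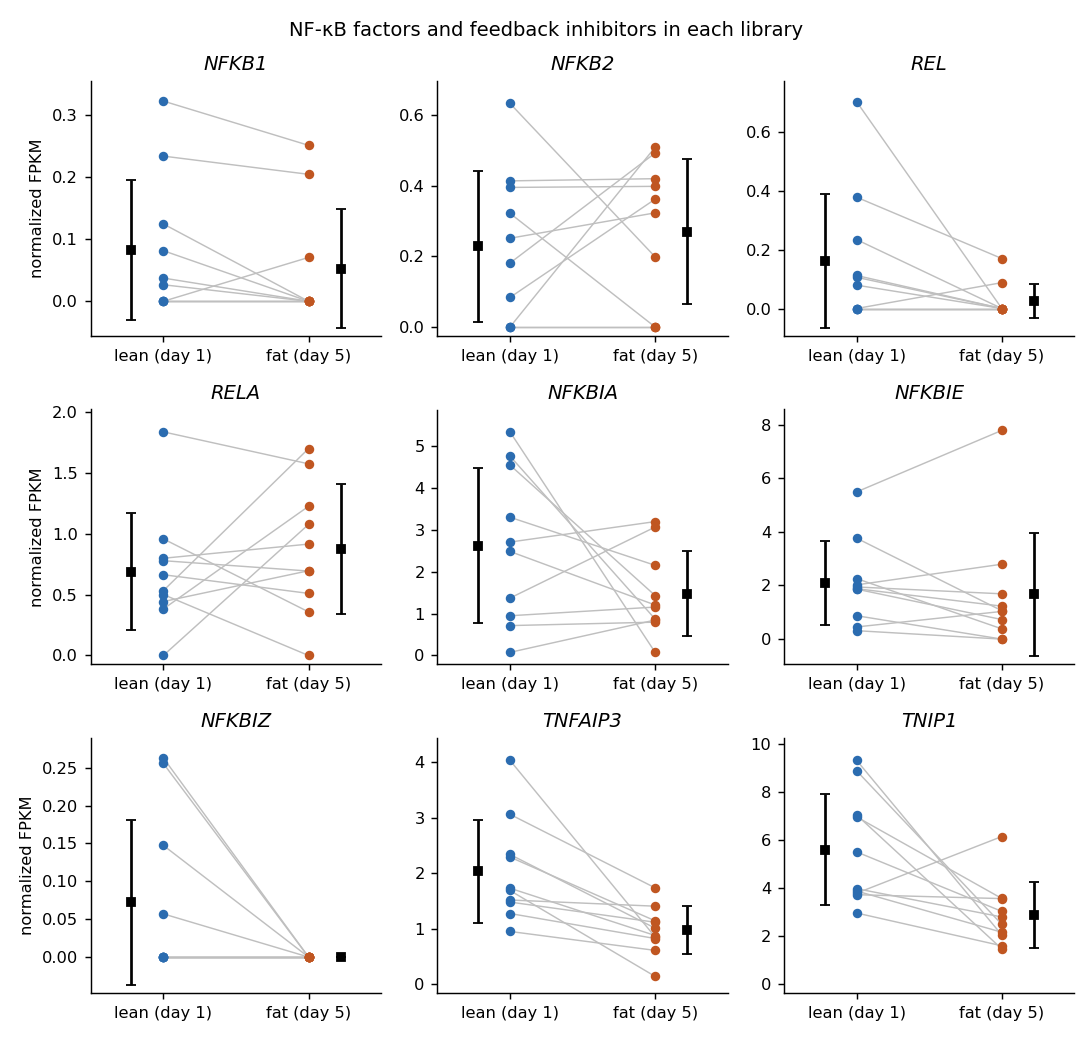
Normalized FPKM (linear vertical axes from the lowest value drawn) of the 9 genes in 10 lean and 10 fat libraries. Dots are libraries, grey lines join the libraries of a bird, and black squares with bars give the mean and SD. TNFAIP3 and TNIP1 sit lower in fat libraries in 10 and 9 birds, with overlap between the groups. The lean and fat values of the 4 factors also overlap, and NFKBIZ is listed at 0 in all fat libraries.

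The question put to the conditions was whether any gene of this circuit differed between lean and fat blood. Genes whose deposited FPKM averaged 0.1 or more were compared as log2(normalized FPKM + 0.1) with limma and Benjamini-Hochberg adjustment over all 7800 genes that passed, and on this scale the change of low genes is understated. Log2 fold changes are given as fat over lean, with standard errors (SE) from this fit. Of the 9 genes, 7 passed this filter and NFKB1 and NFKBIZ did not. One gene, TNIP1, differed at an adjusted p under 0.05 and was lower in fat birds, against 4.76% of all genes tested in either direction, 3.27% lower and 1.49% higher. When the model also held a term for the bird, 2 of the 7 passed, TNIP1 and TNFAIP3, both lower in fat birds, against 13.3% of all genes in either direction and 8.08% lower. At an unadjusted p under 0.05 there were 2 of 7 without the bird term, against 22.2% of all genes, and 3 of 7 with it, against 30.1%. At 7 genes these shares rest on 1 to 3 genes.

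TNIP1 lay between 2.96 and 9.33 normalized FPKM in lean libraries (median 4.74) and between 1.46 and 6.15 in fat libraries (median 2.64). The groups overlapped, with 6 fat libraries below the lowest lean library and 4 lean libraries above the highest fat one. The level fell from 5.61 ± 2.31 to 2.88 ± 1.36 (SD, n = 10 each), which is a log2 fold change of −0.95 with an SE of 0.26 (limma, Benjamini-Hochberg adjusted p = 0.0409, or 0.0305 with the bird term). It was lower in the fat library of 9 birds, and bird 1, which had the highest fat value, went the other way. Single birds were left out only in fits without the bird term. There the call was lost without bird 2, 3, 4, 5, 6, 7, 8 or 10, with adjusted p from 0.0575 to 0.0974 in limma. It held without bird 1 (0.0259) or bird 9 (0.0363). It also ended with no filter (adjusted p = 0.0705), after quantile normalization (0.0884), with quality weights (0.0629) and with the bird term over the 8 birds whose codes match (0.137). That last fit leaves out birds 8 and 10, where the log2 difference of TNIP1 was −2.19 and −0.95. In the coordinates of the zebra finch genome TNIP1 runs from 12122045 to 12137422 on the minus strand, and mean read depth over the gene was 2.72 to 28.3.

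TNFAIP3 codes for A20, an enzyme that edits ubiquitin chains and shuts off signaling from the tumor necrosis factor and Toll-like receptors. It lay between 0.948 and 4.04 normalized FPKM in lean libraries (median 1.71) and between 0.136 and 1.73 in fat libraries (median 0.940). Every lean library was above the fat median and 5 fat libraries were below the lowest lean one. All 10 birds had the lower value when fat, 2.04 ± 0.930 against 0.968 ± 0.434 (SD, n = 10 each). The log2 fold change was −1.05 with an SE of 0.32, which did not pass (limma, Benjamini-Hochberg adjusted p = 0.0612). It passed with the bird term, with an SE of 0.28 and an adjusted p of 0.0261. That call was lost over the 8 birds with matching codes (0.120), a fit that leaves out birds 8 and 10 (log2 differences of −1.14 and −2.13). Without the bird term the gene passed on unscaled FPKM (0.0192) and on TPM (0.0119). The differences within birds ran from −2.92 in bird 1 to −0.10 in bird 4 on the log2 scale. Mean read depth over the gene, which lies at 62125841 to 62142284 on the minus strand, was 0.264 to 11.4.

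Most fitted markers of white cells and thrombocytes were lower in fat birds, as these 2 genes were. The summed heterophil markers were lower in the fat library of 9 birds (2.79 to 14.4 normalized FPKM, median 5.23, against a lean median of 18.9), the monocyte markers in 8 (0.107 to 8.21, median 1.05, against 4.25) and the thrombocyte markers in 7 (55.5 to 80.1, median 66.7, against 90.8). Of the fitted markers, 2 of 6 heterophil genes (MMP9 and NCF1) and 3 of 6 thrombocyte genes (ITGB3, GP1BB and F13A1) passed in limma, all lower in fat birds. None of 5 monocyte genes passed (2 at an unadjusted p under 0.05). Over all genes 4.76% passed, 3.27% as lower, and 22.2% were at an unadjusted p under 0.05 in limma. The erythroid sum was higher in the fat library of all 10 birds, and no erythroid gene passed in limma (2 of 9 at an unadjusted p under 0.05). HBAA made up most of that sum (mean 141249 normalized FPKM in lean and 219015 in fat libraries). Of the 9 erythroid genes 8 were higher in fat birds and SLC4A1 was lower (log2 fold change −0.10, lower in 7 birds). MMP9 was the most abundant heterophil marker and TUBB1 the most abundant thrombocyte marker. TUBB1 showed no fall (0.10, lower in 5 birds). With the bird term the calls were 4 of 6 heterophil, 5 of 6 thrombocyte and 1 of 5 monocyte genes (CSF1R), all lower in fat birds. Of 9 erythroid genes 2 (EPB42 and TFRC) passed with it, both higher. Over all genes 13.3% passed with the bird term, 8.08% as lower, and the monocyte and erythroid calls rest on 1 and 2 genes. The 3 fitted T cell and 3 fitted B cell markers had medians of −0.55 and −0.36 on the log2 scale, and of these BTK passed, lower in fat birds, with the bird term. In whole blood, fewer cells of a type and less RNA per cell cannot be told apart, and the part of these markers in the values of TNIP1 and TNFAIP3 was not tested. The share of uniquely mapped reads in the study's table also differs between libraries. With this share as a covariate over the 18 libraries whose codes the table holds, TNIP1 had a log2 fold change of −0.84 and TNFAIP3 of −0.95, each with an adjusted p of 0.787 in limma. Without the covariate the same libraries, a fit chosen after seeing the data, gave −0.84 (adjusted p = 0.116) and −0.88 (adjusted p = 0.159). The SE was 0.28 without and 0.43 with the covariate for TNIP1, and 0.33 and 0.52 for TNFAIP3. The share and the condition are thus poorly separated, and the fit with both cannot tell them apart.

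**Figure D2:**
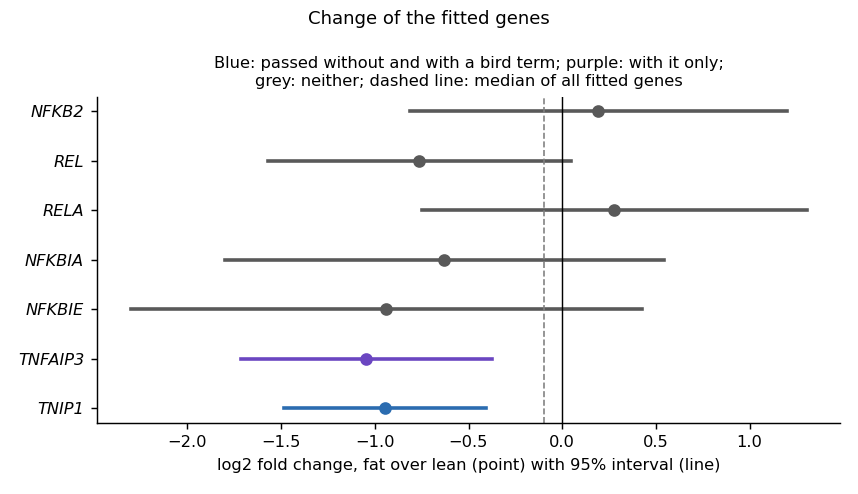
Log2 fold change, fat over lean, of the 7 fitted genes (points) with 95% intervals (lines) from limma without a bird term. The intervals of TNIP1 (−1.49 to −0.41) and TNFAIP3 (−1.72 to −0.38) lie below 0, those of the other 5 cross it, and the median of all fitted genes is −0.10.

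The classical IκB genes NFKBIA and NFKBIE varied widely, and neither passed in limma, without or with the bird term. NFKBIA codes for IκBα, the inhibitor that is destroyed and remade within a single NF-κB response. It lay between 0.0745 and 5.33 normalized FPKM in lean libraries (median 2.59) and between 0.0732 and 3.19 in fat libraries (median 1.18). Both groups reached nearly the same low end, 4 lean libraries were above the highest fat one, and the fat value was lower in 5 birds and higher in 5. The log2 fold change was −0.63, with a 95% interval from −1.80 to 0.54 (adjusted p = 0.543, limma), which leaves room for a change of the size seen in TNIP1. It was −0.15 without bird 8 and −0.97 without bird 3, and with the bird term over the 8 birds with matching codes the sign turned (0.033). That fit leaves out birds 8 and 10, and the difference within bird 10 was −1.60. Within birds the difference ran from −4.97 in bird 8 to 2.44 in bird 3. NFKBIE codes for IκBε, which holds REL and RELA dimers. It lay between 0.315 and 5.49 in lean libraries (median 1.91) and between 0 and 7.78 in fat libraries (median 1.05), and was listed at 0 in the fat libraries of birds 4 and 5. Bird 9 had the highest value of each group. The fat value was lower in 7 birds and higher in 3, with a log2 fold change of −0.94 and a 95% interval from −2.30 to 0.42 (adjusted p = 0.410, limma). With the bird term the adjusted p was 0.132.

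NFKBIZ codes for IκBζ, an atypical member that sits in the nucleus and works with NF-κB dimers on a subset of target genes. It was detected in 4 lean libraries, with a highest value of 0.263 normalized FPKM, and listed at 0 in the other 6 lean and in all 10 fat libraries. Its mean was under the filter, so no fold change is given. Mean read depth over the gene was below 1 in all 20 libraries. More symbols were above 0 in lean than in fat libraries over all genes (medians 8123.5 and 7267.5).

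Among the factors, RELA (p65), the main activating subunit of the classical pathway, was the most abundant. It lay between 0 and 1.84 normalized FPKM in lean libraries (median 0.598) and between 0 and 1.70 in fat libraries (median 0.806), listed at 0 in the lean library of bird 8 and the fat library of bird 7. The fat value was lower in 5 birds and higher in 5, and the log2 fold change was 0.28 with a 95% interval from −0.75 to 1.30 (adjusted p = 0.787, limma). The sign turned without bird 8 (−0.086) and with TPM as deposited (−0.0025). In the tables the gene lies on a scaffold not placed on a chromosome. NFKB2, the precursor of p52 in the noncanonical pathway, was listed above 0 in 7 libraries of each condition and reached 0.634 in lean and 0.510 in fat blood. Its fat value was higher in 6 birds and lower in 2, with a log2 fold change of 0.19 and a 95% interval from −0.81 to 1.20 (adjusted p = 0.857, limma), and the sign turned without bird 9 (−0.075). Mean read depth over NFKB2 was below 1 in 19 of 20 libraries.

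REL and NFKB1 were listed above 0 in more lean than fat libraries. Lean libraries also held more symbols above 0 over all genes, with a median of 8123.5 against 7267.5 in fat libraries. REL codes for c-Rel, the cellular counterpart of an oncogene carried by a bird retrovirus and a factor of lymphoid cells. It was detected in 6 lean libraries, where it reached 0.702 normalized FPKM, and in 2 fat libraries, where it reached 0.170, and it passed the filter through its lean values. Bird 1 had the highest lean value and was listed at 0 when fat. The log2 fold change was −0.76 with a 95% interval from −1.57 to 0.04 (adjusted p = 0.251, limma). NFKB1, the precursor of p50, was detected in 6 lean libraries, reaching 0.322, and in 3 fat libraries, reaching 0.251. It was lower when fat in 6 birds, higher in 1 and listed at 0 in both libraries of 3. Mean read depth over REL and NFKB1 was below 1 in all 20 libraries.

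**Figure D3:**
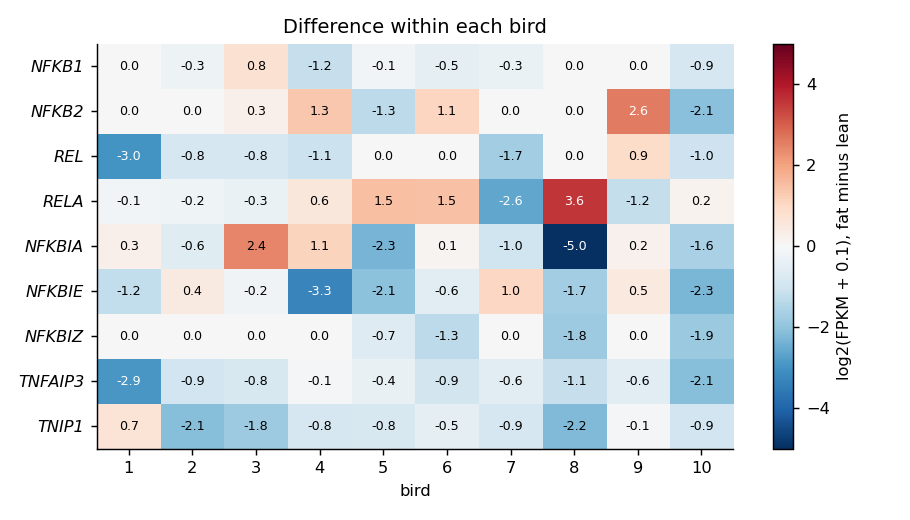
Difference in log2(normalized FPKM + 0.1), fat minus lean, for each gene (rows) in each of the 10 birds (columns). Blue is lower and red higher in the fat library. The TNFAIP3 row is below 0 in all 10 birds, the TNIP1 row in all but bird 1, and NFKBIA ranges from −4.97 to 2.44.

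Birds differed in how many of the genes moved together. Of the 7 fitted genes, between 3 (birds 6 and 9) and 6 (bird 10) were lower when fat. The median difference of the 7 was below 0 in 8 birds and ran from −1.60 in bird 10 to 0.23 in bird 9. The median of all fitted genes within a bird was below 0 in 6 birds and ran from −0.18 to 0. A median of 7 genes varies more than one of 7800, and REL passed the filter through its lean values. The log2 ratio of TNIP1 to TNFAIP3 within a library was 1.42 ± 0.35 when lean and 1.52 ± 1.25 when fat (SD, n = 10 each), higher when fat in 4 birds and lower in 6. The log2 ratio of TNFAIP3 to RELA was 1.62 ± 1.24 in lean and 0.29 ± 1.30 in fat libraries, lower when fat in 8 birds and higher in 2. That of TNIP1 to RELA was lower in 7 birds and higher in 3, and that of NFKBIA to RELA lower in 5 and higher in 5. RELA was listed at 0 in the lean library of bird 8 and the fat library of bird 7. There the ratios to RELA rest on the 0.1 added before the logarithm.

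The genes whose levels followed TNFAIP3 most closely over the 20 libraries were BCL6 (a transcriptional repressor), JCAD (a junction protein), CMIP (a signaling adaptor), TLE5 (a corepressor) and CAP1 (an actin-binding protein), with Spearman rho from 0.88 to 0.89 among 4601 other genes with a mean FPKM of at least 1. TNIP1 had a rho of 0.59 with TNFAIP3, and of 0.37 once the condition means were removed. For NFKBIA the closest were LOC115497454, LOC115497831, LOC115497843, LOC115497600 and PNN (a protein of nuclear speckles and cell junctions), with rho from 0.70 to 0.74, and TNFAIP3 had 0.16. All these libraries share the condition contrast, the cell mix and depth, and the values are a description.

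Of 114 other genes of the pathway, 87 symbols were in the tables and 55 passed the filter. Of these 55, 2 rose, 1 fell and 52 did not pass, which is near the 4.76% of all genes that were called. Their median log2 fold change was −0.03 against −0.10 over all genes. No subunit of the IκB kinase, which receives the signal, passed in limma. CHUK (IKKα) had a log2 fold change of −0.17 (adjusted p = 0.613), IKBKB (IKKβ) of −0.03 (adjusted p = 0.942) and IKBKG (NEMO) of 0.73 (adjusted p = 0.354), each from limma and looked up after the values were seen.

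Among 24 fitted adaptors, kinases and parts of the ubiquitin ligase that destroys IκB, 12 were lower and 12 higher in fat birds. SKP1, a subunit of that ligase and of others, was the most abundant and ranged from 598 to 1137 normalized FPKM when lean and from 1000.2 to 1789 when fat. It rose in all 10 birds, from 888 ± 165 to 1396 ± 267 (SD, n = 10 each), by 0.65 on the log2 scale with an SE of 0.14 (limma, adjusted p = 0.0128). TAB3, an adaptor of the kinase TAK1, ranged from 15.4 to 32.9 when lean and from 28.1 to 48.3 when fat, and it rose in all 10 birds by 0.70 on the log2 scale with an SE of 0.15 (limma, adjusted p = 0.0131). On unscaled FPKM the log2 fold changes were 0.34 (adjusted p = 0.102) for SKP1 and 0.39 (0.107) for TAB3, and on TPM they were 0.24 (0.229) and 0.30 (0.224). Relative to the median of all genes SKP1 was at 0.75 as reported, 0.69 on unscaled FPKM and 0.67 on TPM, and TAB3 at 0.80, 0.74 and 0.73. After quantile normalization SKP1 was at 0.41 and did not pass (adjusted p = 0.174), and TAB3 at 0.62 passed (0.0252).

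Of the 31 NF-κB target genes listed, 22 were in the tables, 10 were fitted and 1 passed, against 4.76% of all genes. This gene, GADD45B, is a stress-induced gene that other signals also switch on. It fell from a range of 339 to 3574 normalized FPKM when lean to one of 152 to 474 when fat. Of the 10 fitted targets, 8 were lower and 2 (IRF1 and SOD2) higher in fat birds, against 57.0% lower over all genes. The median log2 fold change of the 10 was −0.58, against −0.10 over all genes. Among the 8, SDC4 averaged 0.184 normalized FPKM in lean and 0.0486 in fat libraries, and B2M 0.186 and 0.0688. Both passed the filter through their lean values, so the count and the median rest partly on the filter. At an unadjusted p under 0.05 in limma there were 4 of the 10, against 22.2% of all genes. Of these 4, IRF1 was higher in fat birds (log2 fold change 0.53) and GADD45B, MYC and PLEK were lower. IRF1, SOD2, SDC4, B2M and MYC were named after their values were seen. IL6, TNFAIP2, BCL2A1, TRAF1, CD83 and CCL20, classical targets in inflamed white cells, were listed at 0 in all 20 libraries. IL1B, the most abundant of 7 fitted receptors and ligands, ranged up to 5.02 normalized FPKM when lean (median 1.47) and up to 3.58 when fat (median 1.22), and none of the 7 passed in limma (1 at an unadjusted p under 0.05). Among 13 other brakes of the pathway none passed (3 at an unadjusted p under 0.05, against 22.2% of all genes). RNF11, a partner of TNFAIP3, was the most abundant of them, with medians of 239 in lean and 270 in fat libraries. Of the 2 fitted further family members neither passed in limma (none at an unadjusted p under 0.05), and NKRF, a repressor of NF-κB targets, had medians of 20.6 and 21.2. With the bird term, 4 of the 55 passed as higher and 3 as lower, also near the share over all genes (13.3%), adding MAP3K7 (TAK1) and TOLLIP as higher and OTULIN and PLEK as lower, all 4 named after their values were seen.

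**Figure D4:**
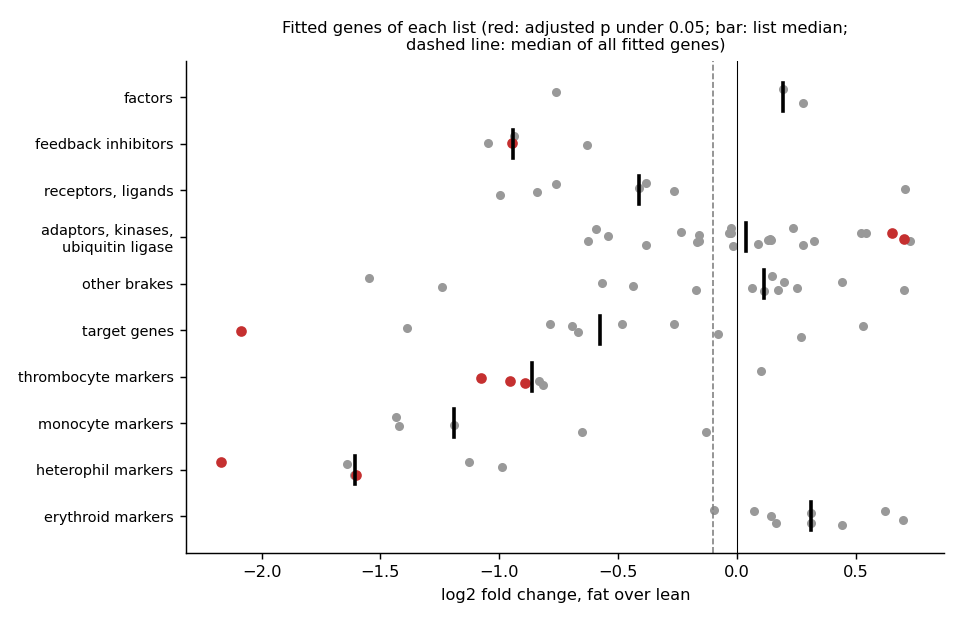
Log2 fold change, fat over lean (horizontal axis), of each fitted gene in 10 lists, with vertical position within a list spread at random. Red dots passed at an adjusted p under 0.05 and black bars are list medians. List medians are −0.94 for the 4 fitted inhibitors and 0.19 for the 3 fitted factors. For markers they are −0.86 (thrombocyte), −1.19 (monocyte), −1.61 (heterophil) and 0.31 (erythroid). Receptors and ligands are at −0.41, adaptors and kinases at 0.04, other brakes at 0.11 and target genes at −0.58. Low genes could pass the filter through their lean values, as REL, SDC4 and B2M did.

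The scaling shifted the level against which changes are read. The median log2 fold change over all genes was −0.10 after median-of-ratio scaling, −0.35 on unscaled FPKM, −0.43 on TPM and 0.051 after quantile normalization, and the share of calls that were lower in fat birds was 68.7%, 97.1%, 98.6% and 58.99%. Relative to these medians TNIP1 was at −0.85, −0.90, −0.91 and −0.87 and TNFAIP3 at −0.95, −0.97, −0.99 and −0.84.

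**Figure D5:**
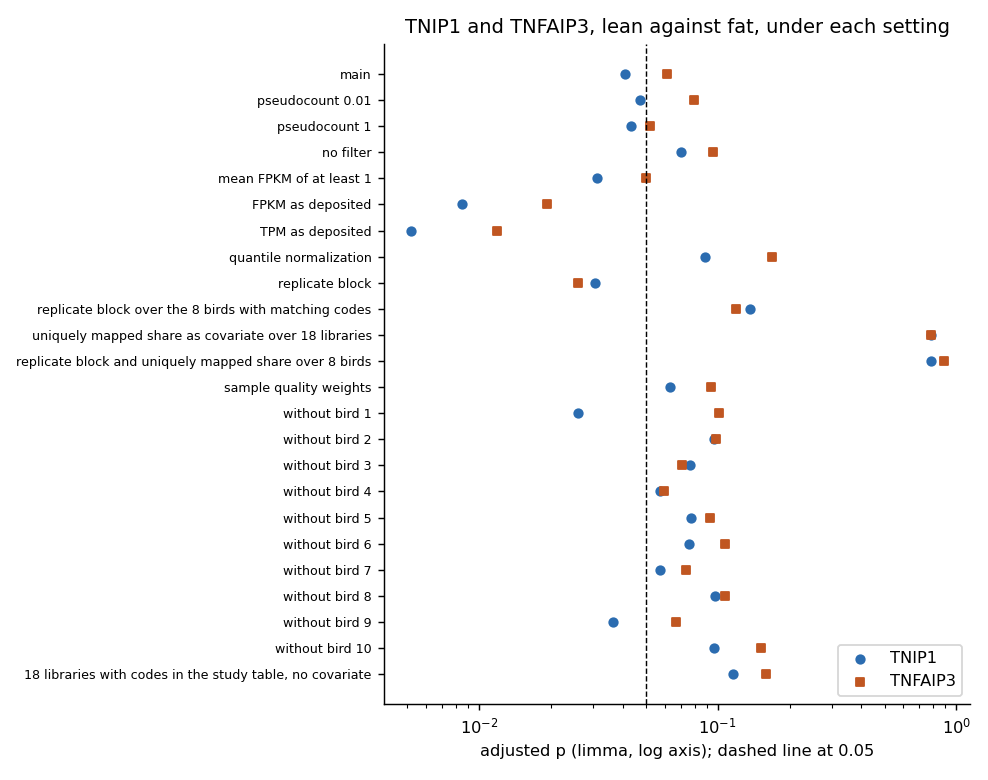
Adjusted p from limma (log axis) for TNIP1 (circles) and TNFAIP3 (squares), lean against fat, in the fit reported and each alternative (vertical axis). TNIP1 is at 0.0409 and TNFAIP3 at 0.0612 in the fit reported, and both are at 0.786 or above where the uniquely mapped share is in the model.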

How the data were processed

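Whole blood RNA of 10 birds was sequenced on day 1 and day 5 (paired-end, mRNA-Seq kit). Reads were trimmed by the authors and mapped with STAR to the genome of the zebra finch, and StringTie was run on each library. The deposited tables give coverage (a signal, mean depth per base), FPKM and TPM, with no scaling between libraries and no read counts, so no count model was run.

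FPKM was summed per symbol and divided by median-of-ratio factors over 4487 symbols above 0 in every library. Conditions were compared with limma 3.58.1 (R 4.3.3) on log2(FPKM + 0.1), two-sided, trend on, adjusted p under 0.05; a bird term was left to an alternative, as the paper's methods give none. The fit was tested on simulated data. Other steps used Python 3.11.15. The members and lists were chosen with earlier results of these data known. All members are named, as are the called and the most abundant genes of each other list and the 5 genes most like NFKBIA and TNFAIP3.

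Replicate numbers pair the samples, since each bird was bled on both days. The codes in the labels tie both libraries to 1 bird of the study's table for 8 birds. With condition means removed, the correlation across genes of a bird's pair was 0.152 to 0.382, and 20 of 20 libraries matched their own bird best. The alternatives were pseudocounts of 0.01 and 1, other filters, unscaled FPKM and TPM, quantile normalization, the bird block, the uniquely mapped share, quality weights and leaving out each bird. Of the study's table the codes served to check the pairing and to choose the libraries of a fit. The mapped share was used as a term of a fit only.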

Additional observations from a re-analysis of the deposited data

Results flagged for a closer look

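In 4 of 17 groups of 10 libraries 1 library stood apart from the others, by the gap to its nearest neighbor as a share of the range (Dixon's test, 95% level). Chance flags about 1 in 20 groups where values are normal, which these are not, since FPKM is skewed and holds zeros, so the 4 cannot be set against that rate. NFKBIE reached 7.78 normalized FPKM in the fat library of bird 9, with the next fat library at 2.79. TNIP1 reached 6.15 in the fat library of bird 1, with the next at 3.56, and this is the only bird in which TNIP1 was higher when fat. RELA reached 1.84 in the lean library of bird 2, with the next at 0.958. REL reached 0.170 in the fat library of bird 2, where 8 of 10 fat libraries are listed at 0 and the only other value is 0.0879.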

How the results depend on the processing

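Mean read depth was below 1 in every library for NFKB1, REL and NFKBIZ, which limits the precision of their values. Over all genes, 371 were called in the fit reported, 120 with no filter, 882 on unscaled FPKM, 1243 on TPM, 178 after quantile normalization, 1034 with the replicate block and 110 over the 18 libraries with codes in the study's table, a fit chosen after seeing the data. With the uniquely mapped share in the model limma called 0 genes (506 at an unadjusted p under 0.05), and 0 with block and share together over 8 birds (666). Of the 7 fitted members 1 was called, 2 on unscaled FPKM, 2 on TPM and 2 with the replicate block. No member, 0, was called by limma in the following settings, each given with its count at an unadjusted p under 0.05. With no filter this was 4 of 9 members, against 2044 of 12705 genes. After quantile normalization it was 2 of 7, against 1485 of 7800. The block over the 8 birds with matching codes gave 2 against 1835, and quality weights 2 against 1680. The 18 libraries gave 3 against 1526, the share 0 against 506, and block and share together 1 against 666. REL and NFKBIZ, among the 4 with no filter, were listed at 0 in 8 and 10 fat libraries. Of the other pathway genes 3 were called, 5 on unscaled FPKM, 7 on TPM, 7 with the replicate block, 0 with the share in limma (8) and 0 with block and share (6). Leaving out each bird, in fits without the bird term, gave 73 to 400 genes, 0 to 1 members and 3 to 4 other pathway genes. TNIP1 and TNFAIP3 were lower in fat birds under all 23 alternatives, from −1.34 to −0.67 and from −1.41 to −0.41. NFKBIE stayed below 0 in its 23 alternatives and REL, which passed the filter through its lean values, in its 22. The other filters and the bird block over all libraries return the estimate of the fit reported, so there the sign could not turn. All alternatives refit the same birds, so these counts are no separate support. RELA turned to −0.0025 on TPM, −0.12 with the block over 8 birds and −0.091 with the share, and ran from −0.086 to 0.60 without each bird. NFKBIA turned to 0.033 with the block over 8 birds and 0.25 with block and share, and NFKB2 ran from −0.075 to 0.45 without each bird. The cause of these changes was not tested.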
